A study of Drosophila melanogaster with 2 samples.

Results

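Core genes of the Wnt and Hedgehog pathways, wg, arm, sgg, pan, nkd, hh, ptc, smo and ci, were examined for peaks of a tagged DNA-associated protein in Drosophila melanogaster embryos. They are 9 of 13968 protein-coding genes annotated on the chromosomes used. They carried 12 of the 3143 summits of the conservative peak list, the stricter of the series' pair of combined lists. A summit, the position of highest signal within a peak, was taken for a gene when it lay in the gene body or within 5 kb of it. The genes were selected on peak signal values of these same data, so their counts and levels are a description and carry no test.

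The study measured CG11696, a protein known by its code name, by chromatin immunoprecipitation and sequencing in 1 group of 2 biological replicates. All embryos came from the strain CG11696-GFP, which carries a transgene for a CG11696-eGFP fusion, and an anti-GFP antibody was used for the precipitation. Whole embryos of 0 to 24 h mix stages and tissues, so fewer cells with a contact and weaker contact per cell cannot be told apart. No second genotype, treatment or age was compared, and the labels do not name the promoter that drives the fusion. Per the labels, chromatin was sonicated to 200 to 800 bp.

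Wnt ligands bind receptors at the cell surface and stop a cytoplasmic destruction complex from removing beta-catenin, which then acts with the DNA-binding factor TCF in the nucleus. Hedgehog binds its receptor Patched and so relieves Smoothened of repression, which changes the processing of the Gli family factor Ci. In the fly embryo both pathways maintain each other's expression between neighbouring cells, and both later pattern the wing and other appendages.

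Of the windows that reach 50 bp to either side of a member summit, 5 are shown as examples: sites just upstream of an own start at sgg and nkd, an intron site at wg, an exon of an RNA nested in nkd, and a site at a neighbour's start near smo. The sequences are those of RefSeq for dm6 (Release 6), on the forward strand, 5′ to 3′. Capitals mark the longest run of A and T in each, or the first of equally long runs, as at wg and in the nkd intron.
wg, intron, chr2L:7313572-7313672: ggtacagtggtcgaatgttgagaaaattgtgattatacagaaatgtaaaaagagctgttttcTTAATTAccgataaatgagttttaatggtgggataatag
sgg, own start site, chrX:2646393-2646493: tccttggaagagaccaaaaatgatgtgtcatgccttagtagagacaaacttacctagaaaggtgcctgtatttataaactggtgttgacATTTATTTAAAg
nkd, upstream of its start, chr3L:19045548-19045648: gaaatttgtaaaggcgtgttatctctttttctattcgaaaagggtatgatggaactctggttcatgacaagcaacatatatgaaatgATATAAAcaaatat
nkd, first intron, chr3L:19033306-19033406: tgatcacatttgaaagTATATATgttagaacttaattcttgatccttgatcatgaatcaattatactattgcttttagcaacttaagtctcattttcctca
smo, downstream, chr2L:286562-286662: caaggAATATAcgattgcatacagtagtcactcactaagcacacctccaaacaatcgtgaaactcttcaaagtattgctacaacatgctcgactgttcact
The run is 11 bp long at sgg and 6 bp at smo, and it is 7 bp at each of the other 3 windows. The sgg window is labelled by its class and does not reach the start site itself, which lies 194 bp from the summit.

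A conservative summit was present at 5 of the 9 genes (55.6%), against 33.2% of all protein-coding genes. Among the Wnt genes, wg had 1 such summit, sgg 2 and nkd 3. Among the Hedgehog genes, ptc had 5 and smo 1. None was present at arm, pan, hh or ci. At the genes with windows under 30 kb, 3 of 6 had a summit, against 31.6% of all genes of that size, and at those of 30 kb or more 2 of 3 did, against 53.7%. The 30 kb boundary was chosen after the data were seen, and a longer window has more room for a summit. A summit within 500 bp of an own transcription start site (TSS) was found at 3 of the 9, sgg, nkd and ptc, against 10.1% of all protein-coding genes.

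**Figure D1:**
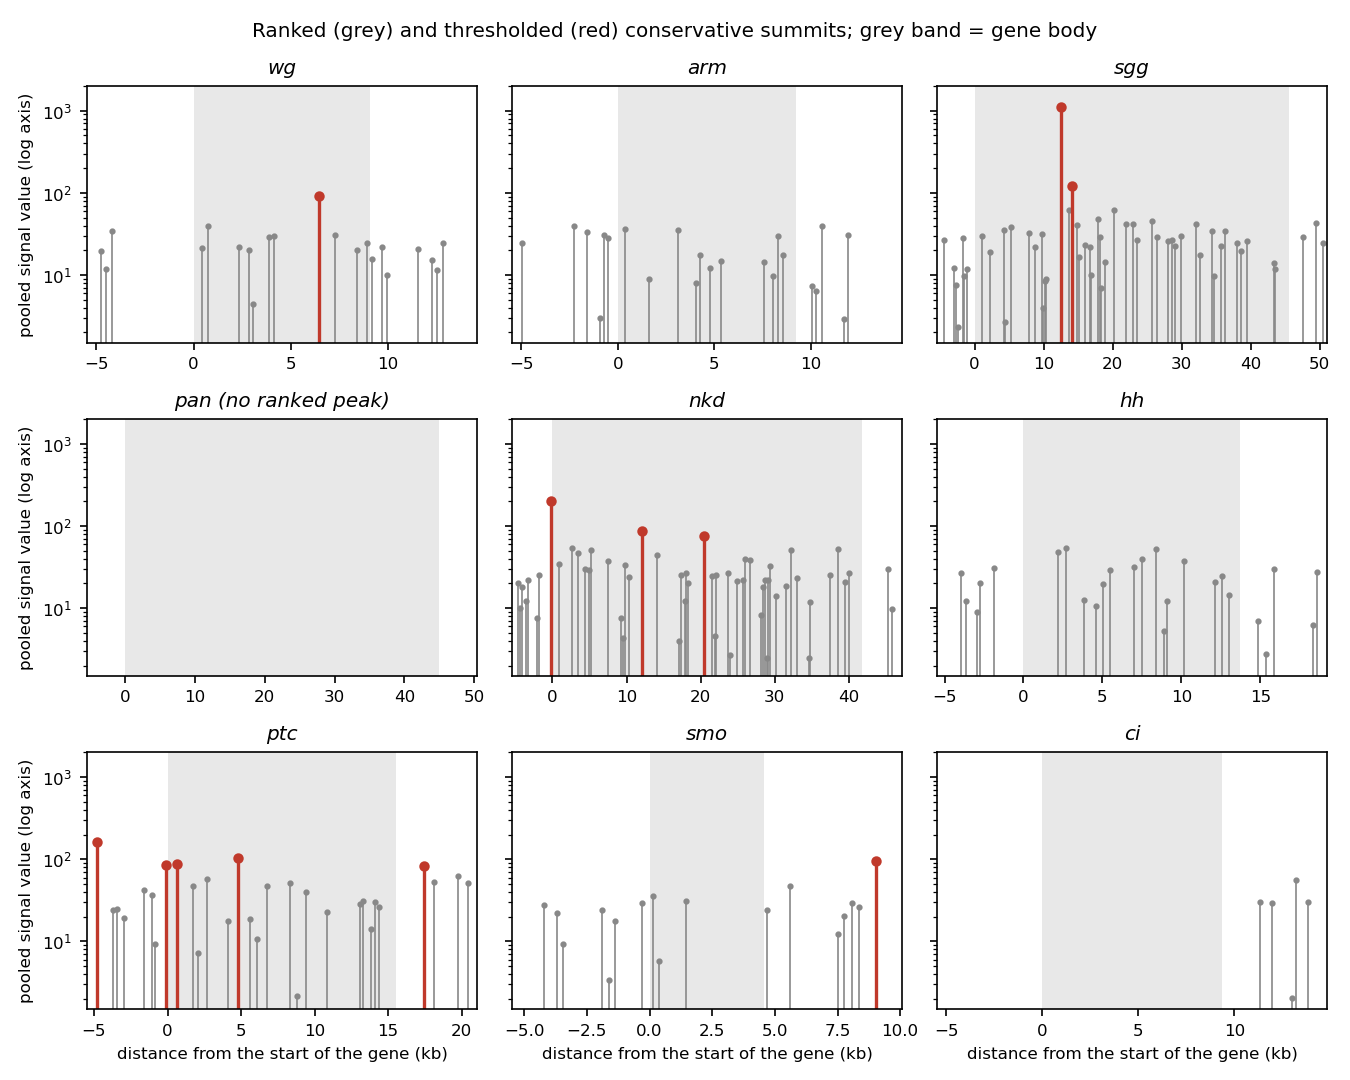
Conservative summits by distance from the start of each gene (kb, in the direction of transcription) and pooled signal value (log axis). Red points passed the reproducibility threshold, grey points were ranked and did not pass, and the grey band is the gene body. The tallest point, 1103 at sgg, lies inside the gene, ptc has 5 red points, and the panel of pan is empty.

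Signal values are the authors' measure of peak strength. The value of the conservative list is for both replicates together, here called pooled, and each replicate's own list has its own scale, so values are compared only within a list. Means and SDs over the replicates describe unscaled values, so each SD also holds any difference in scale between their lists. The median signal over all ranked peaks was 16.5 in replicate 1 and 13.5 in replicate 2. Replicate values are those of the overlapping peak in the replicate's own ranked list. A ranked peak enters a thresholded list at a score of at least 830, on a scale up to 1000, which reflects how well its rank repeated between a pair of peak sets.

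Wingless, encoded by wg, is the principal Wnt ligand of the embryo. Its single conservative peak, chr2L:7313450-7313793, had its summit at 7313622 in the third intron, 6463 bp from the TSS. The pooled signal was 91.5, and the replicates gave 42.0 and 46.7 (44.4 ± 3.34, SD, n = 2). Only replicate 2 passed its own threshold, with a score of 844 against 759 in replicate 1. No other gene lay in the window of wg.

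The kinase encoded by sgg, Shaggy, marks beta-catenin for removal in the destruction complex and also phosphorylates Ci. Its peak at chrX:2646193-2646658 had a pooled signal of 1103, the 16th highest of the 3143 conservative peaks and the highest at any of the 9 genes. Replicate 1 gave 514 and replicate 2 gave 544 (529 ± 21.0, SD, n = 2), and both passed. The summit, 2646443, lay 194 bp upstream of one of the 11 annotated start sites of sgg and within introns of its longer transcripts.

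A second sgg summit at 2648135, in the same introns and 1498 bp from an own start, was far weaker, with a pooled signal of 119.9. Its replicates gave 41.4 and 67.3 (54.4 ± 18.3, SD, n = 2), with scores of 775 and 441, so that neither passed. Just outside the threshold was another sgg summit at 2647581, with a pooled signal of 62.4 and a score of 748. It had the highest score among the member summits that did not pass, while all 12 that passed had the full score of 1000.

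Armadillo, the fly beta-catenin encoded by arm, had 22 ranked conservative summits and none that passed. The strongest, at chrX:1902757-1903100, had a pooled signal of 40.0 and a score of 268. It lay 248 bp from the start of a neighbour, CG32801, and 2283 bp from the nearest start of arm. The replicates gave 20.2 and 22.2 there.

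Naked cuticle, encoded by nkd, is an antagonist that Wnt signalling itself switches on. The strongest of its 3 conservative peaks, chr3L:19045426-19045769, had its summit 149 bp upstream of the single annotated start. Pooled signal was 204 there, replicate 1 gave 106.8 and replicate 2 gave 93.7 (100.3 ± 9.25, SD, n = 2), and both passed. The other 2 summits lay deep in the first intron and were weaker.

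At 19033356, inside an exon of the nested gene lncRNA:CR45940, the pooled signal was 87.5, with 48.0 and 42.1 in the replicates (45.02 ± 4.18, SD, n = 2). Replicate 1 passed there with a score of 1000, and replicate 2 did not, with 503. At 19025013, 20436 bp from the nkd start, the pooled signal was 75.6, the lowest of the 12. Its replicates gave 45.7 and 36.2 (41.0 ± 6.70, SD, n = 2), and neither passed.

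The TCF factor of the fly, Pangolin, is encoded by pan on chromosome 4. It was the only one of the 9 genes with no conservative ranked peak at all. Replicate 1 had 10 ranked peaks in its window and replicate 2 had 0. One of the 10, with its summit at 67224, passed in replicate 1 with a signal of 63.8, and it lay 17 bp from the start of the ribosomal protein gene RpS3A and 2102 bp from the nearest start of pan.

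On the same chromosome, ci encodes Cubitus interruptus, the DNA-binding factor of the Hedgehog pathway. Its window held 5 ranked conservative summits, all beyond the end of the gene body, and none passed. The strongest, at 43836, had a pooled signal of 55.7 and a score of 397 and lay 58 bp from the start of PlexB. The replicates gave 21.9 and 33.9.

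Both genes lay in a stretch of chromosome 4 with no conservative ranked summit, from 45701 to 248281 (202.6 kb). The longest such stretch on 2L, 2R, 3L, 3R and X ran from 108.7 kb on 3R to 193.1 kb on 2L. Replicate 2 alone had a stretch of 163.8 kb, from 43800 to 207620, against at most 128.3 kb on those other arms. Replicate 1 had its longest on chromosome 4 at 60.5 kb, well below the 193.1 to 237 kb of those arms. Ranked peaks at pan were therefore listed in replicate 1 and not in replicate 2 or the combined list, and the cause was not tested.

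Hedgehog, encoded by hh, is the ligand of the second pathway. None of its 25 ranked conservative summits passed. The strongest, in the intron at chr3R:23139029-23139372 and 2705 bp from the start, had a pooled signal of 54.6 and a score of 488. The replicates gave 24.6 and 26.9, with scores of 85 and 194. The score of the conservative list, 488, was far below the 1000 of the member summits that passed.

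Smoothened, encoded by smo, is the membrane protein that carries the Hedgehog signal inward. The summit counted for it, at chr2L:286440-286783, lay 4445 bp beyond the end of smo and 81 bp from the start of CG3625. The pooled signal was 96.2, and the replicates gave 39.8 and 50.2 (44.99 ± 7.39, SD, n = 2). Neither replicate passed, with scores of 49 and 27, and the peak was not in the optimal list, the less strict of the combined pair. The window held 7 other genes, CG3625 included.

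Patched, the Hedgehog receptor and itself a Hedgehog target, is encoded by ptc on 2R. It had 5 conservative summits, a number that 104 of 13968 protein-coding genes (0.745%) reached or exceeded. That share is not matched for window length: the window of ptc was 25.6 kb, against a median of 12.2 kb. With the gene body alone ptc had 2 summits, and with conservative peaks at or above the median signal value it had 1. The strongest of the 5, at 8644857, lay between genes, 4792 bp upstream of ptc, which is close to the 5 kb limit. Its pooled signal was 163, and replicate 1 gave 103.8 against 64.1 in replicate 2 (84.0 ± 28.1, SD, n = 2). Both replicates passed.

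Close to the ptc start were 2 summits. One at 8649556, 93 bp upstream, had a pooled signal of 86.1, with 61.6 and 34.8 in the replicates (48.2 ± 19.0, SD, n = 2). Another at 8650295, in the 5' untranslated region (UTR), had 86.8, with 48.6 and 40.3 (44.4 ± 5.90, SD, n = 2). At both, replicate 1 passed and replicate 2 did not.

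In the first intron of ptc the summit at 8654436 lay 2940 bp from the start of lncRNA:CR44281 and 4787 bp from that of ptc. Its pooled signal was 104.4. The replicates gave 53.7 and 49.2 (51.5 ± 3.16, SD, n = 2), and both passed. Replicate 2 had a further thresholded peak of 2.68 at 8654671, which overlaps the stronger one. The summit at 8667101 lay 1878 bp beyond the end of ptc, in an intron of Acsl, a fatty acid CoA ligase gene, and 930 bp from its start. Its pooled signal was 82.0, with 42.1 and 41.7 in the replicates (41.9 ± 0.298, SD, n = 2), and replicate 2 alone passed. Replicate 1 instead had thresholded peaks farther beyond the end of ptc, also in introns, at 8667742 and 8669277, with signals of 44.1 and 43.8.

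**Figure D2:**
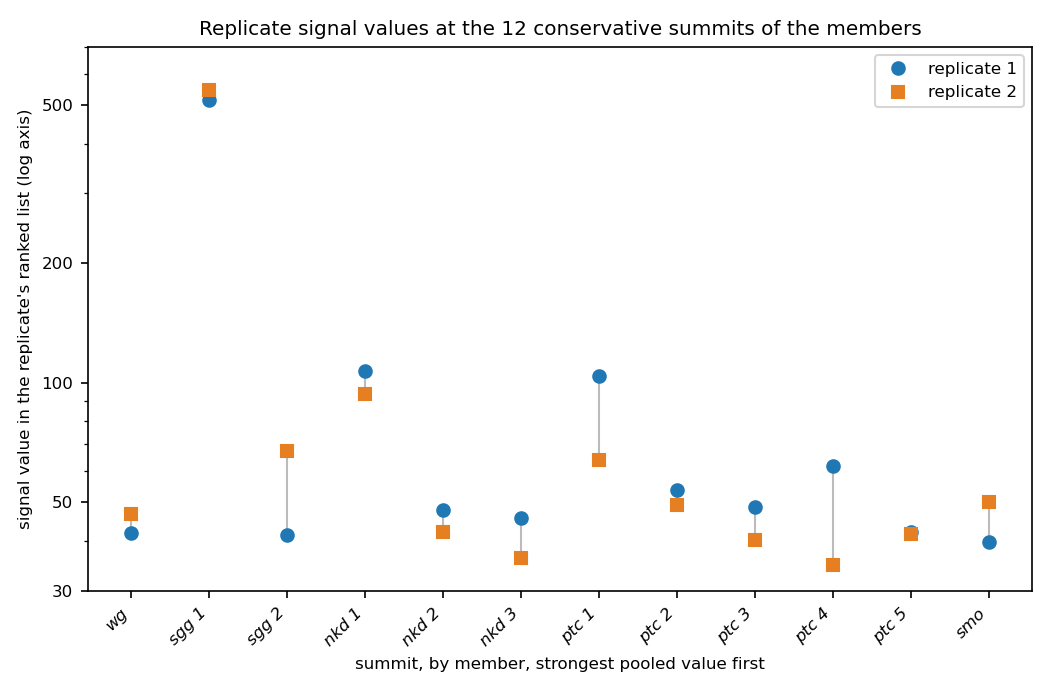
Signal value of each replicate (log axis) at the 12 conservative summits of the 9 genes, numbered within a gene from the strongest pooled value. The first sgg summit stands at 514 and 544, and the other 11 summits lie between 34.8 and 106.8.

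In the replicates' own thresholded lists, 4 of the 9 genes had a summit in replicate 1 (sgg, pan, nkd and ptc), against 26.6% of all protein-coding genes. In replicate 2 it was again 4 (wg, sgg, nkd and ptc), against 26.9% of all. The genes in both were sgg, nkd and ptc. Of the 12 conservative peaks, 4 (33.3%) overlapped a thresholded peak of both replicates, against 51.2% of all 3143. Another 3 (25%) overlapped one of replicate 1 alone, against 10.2% of all, 2 (16.7%) one of replicate 2 alone, against 13.6%, and 3 (25%) neither, against 25.1%.

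The median pooled signal of the 12 summits was 93.8, with quartiles of 86.6 and 130.8, against 107 for all conservative peaks, with quartiles of 77.9 and 173. By class, 4 of the 12 lay within 500 bp of a TSS of any gene (33.3%, against 41.1% of all), and 5 in introns (41.7%, against 41.7%). One each (8.33%) lay in a 5' UTR, in another exon (of a noncoding RNA) and between genes, against 0.859%, 1.02% and 13.4% of all. No coding exon or 3' UTR held one, and these classes held only 0.732% and 1.11% of all. The nearest start was the gene's own for 7 of the 12, and 7 lay in the gene body. No share over all conservative peaks was computed for either count.

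Before the threshold, the 9 genes held 228 ranked conservative summits, of which 12 passed. On all chromosomes used, the ranked list held 95508 summits and the thresholded list 3143. The median over the 9 genes was 10.5 ranked summits per 10 kb of window, against 8.49 over all protein-coding genes. The 7 genes off chromosome 4 ranged from 9.71 at sgg to 11.7 at ptc, while ci had 2.59 and pan 0.

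By signal over the replicates, the genes most like sgg were found among 310 genes whose strongest pooled value was within 1 log2 unit of it. The closest, with a distance of 0.038 in log2 units over 2 replicates, was a single peak at chr3L:4403197-4403546, shared by the windows of CG15019, Syx17, TP53INP and slow. It had a pooled signal of 1068, with 504 and 535 in the replicates, and lay 110 bp from the start of Syx17. Next was a peak 95 bp from the start of CG14100, at a distance of 0.041, with 519 and 559 in the replicates.

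Base composition was measured in the windows of 50 bp to either side of a summit and in flanks of the same length 300 bp to either side, a measure chosen after the data were seen. A and T made up a median of 62.9% at the 12 member summits, against 66.3% at all conservative summits, 56.4% in their flanks and 55.4% at all ranked summits. A run of at least 8 A or T bases was present in 4 of the 12 windows (33.3%), against 72.1% of all conservative windows, 49.3% of their flanks and 45.4% of ranked windows. Member windows ranged from 39.6% A and T at the ptc start to 72.3% at the nkd intron site with the nested RNA. At 5 of the 12, the summit window was richer in A and T than both of its flanks. The share of all conservative summits that do so was not computed, so whether 5 of 12 is usual is unknown.

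**Figure D3:**
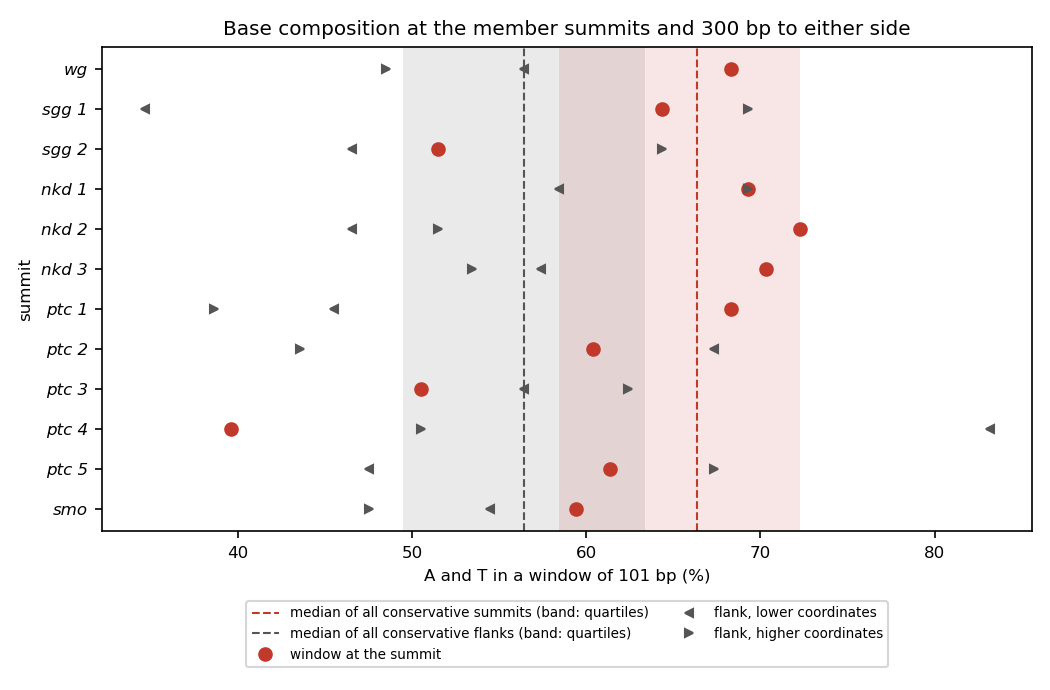
A and T content (%) of the window of 50 bp to either side of each member summit (red) and of the flanking windows 300 bp away (grey triangles), with medians and quartiles over all conservative summits and flanks as dashed lines and bands. The 12 red points run from 39.6% to 72.3%, and 5 of them lie to the right of both of their flanks, a count without a share over all summits.

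The same windows were searched on both strands for 7 short motifs. The TCF core CTTTGA was found in 1 of 12 member windows (8.33%), that of smo, against 6.08% of all conservative and 5.90% of ranked windows. The Ci core GACCACC was in 0 of 12, against 0.286% and 1.04%. GAGAG was in 1 (8.33%), at the ptc start, against 11.1% and 12.3%, and the E-box CANNTG, which can overlap any of the others, in 2 (16.7%), against 37.9% and 42.2%. The promoter element TATCGATA, the Zelda motif CAGGTAG and the core promoter motif GGTCACA were in 0 of 12, against 0.668%, 0.414% and 1.56% of all conservative windows. A window without a match says only that these letters are not in it.

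Among 55 further genes of both pathways and their targets, 31 (56.4%) had a conservative summit, against 33.2% of all protein-coding genes. Their windows were longer, with a median of 19.0 kb against 12.2 kb. Under 30 kb it was 16 of 38 (42.1%), against 31.6% of all, and at 30 kb or more 15 of 17 (88.2%), against 53.7%. A summit within 500 bp of an own start was found at 5 of the 55 (9.09%), Wnt4, gish, gro, rdx and Dll, close to the 10.1% of all. Replicate 1 had a thresholded summit at 27 of the 55 (49.1%), against 26.6% of all protein-coding genes, and replicate 2 at 22 (40.0%), against 26.9%. Several of the strongest peaks lay at the start of another gene.

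**Figure D4:**
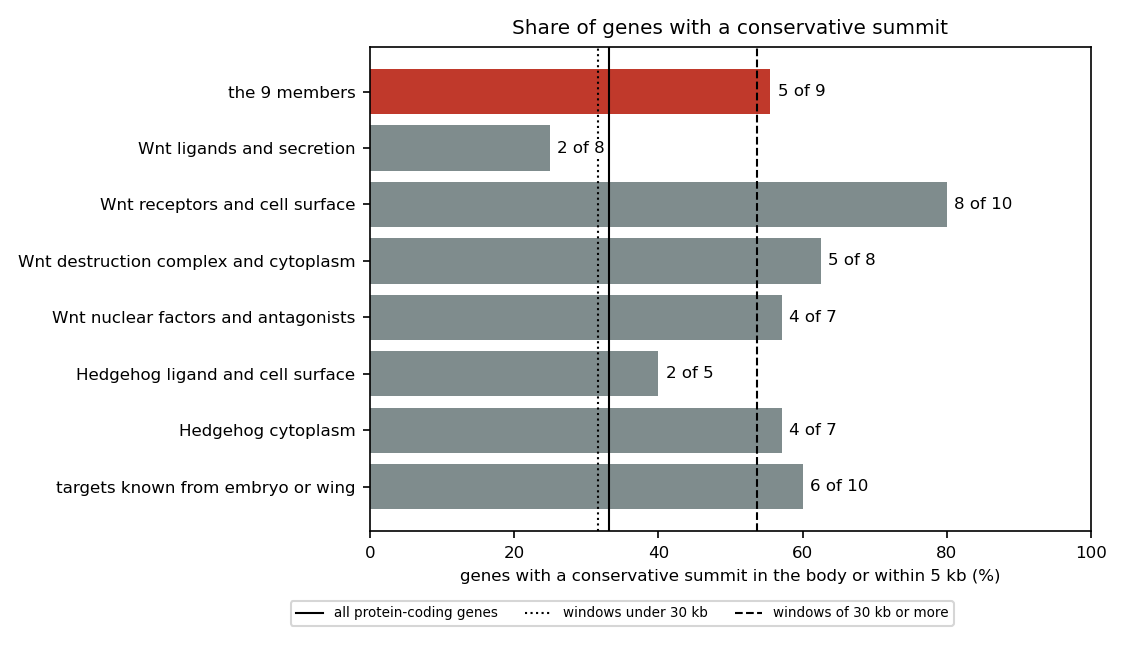
Share (%) of genes with a conservative summit in the body or within 5 kb, for the 9 genes (red) and 7 lists of other pathway genes (grey), with the share of all protein-coding genes and of those with shorter and longer windows as vertical lines. The 9 genes stand at 5 of 9, and the lists run from 2 of 8 Wnt ligand and secretion genes to 8 of 10 Wnt receptor and surface genes.

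Of 8 other Wnt ligand and secretion genes, 2 had a summit. Wnt5, which guides axons, had a pooled signal of 148 in an intron, and Wnt4 had 79.6 at 26 bp from its own start. Receptors and surface proteins had one at 8 of 10. The glypican gene dlp and the receptor gene fz both reached 162. The dlp peak lay 104 bp from the start of lncRNA:CR45888, and fz had 6 summits over a window of 104 kb. A peak of 114 counted for the receptor gene fz3 lay 19 bp from the start of RpL22, and the glypican gene dally had 106.4 in an intron.

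In the destruction complex and cytoplasm, 5 of 8 genes had a summit. The casein kinase gene gish had the strongest, 619 at 157 bp from its own start, with 312 and 314 in the replicates (313 ± 1.70, SD, n = 2). The peak counted for Tnks, a tankyrase that acts on Axin, had 259 and lay 117 bp from the start of asRNA:CR45208. At dsh, which carries the signal from the receptor, the pooled signal was 223, in an intron. The nearest start there was that of CG1737, 932 bp away. At Apc2 the pooled signal was 143, at the start of TBC1d7. Nuclear factors and antagonists had a summit at 4 of 7. The corepressor gene gro had 463, although 253 bp from the start of E(spl)m7-HLH, the kinase gene nmo had 129, the Wnt-removing esterase gene Notum 124 and the corepressor gene CtBP 86.5. The peak counted for Notum lay in a coding exon, and the nearest start was that of CG5895, 1445 bp away.

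On the Hedgehog side, 2 of 5 ligand and surface genes had a summit. Both lay at a neighbour's start, that of shf with 112 at Coq7 and that of the coreceptor gene ihog with 103 at Gas41. Of 7 cytoplasmic genes, 4 had one. The strongest, 810, was counted for Gprk2, a kinase that acts on Smoothened, and lay 85 bp from the start of PNPase. At rdx, which targets Ci for removal, the highest value was 323 in an intron, and the kinase genes dco and Pka-C1 had 137 and 129.

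Known targets in the embryo or wing had a summit at 6 of 10. The muscle attachment factor gene sr reached 182 in an intron. The limb gene Dll had 171 at 53 bp from its own start, with 126.0 and 47.6 in the replicates' own lists (86.8 ± 55.5, SD, n = 2). The protease gene rho had 103 and the ligand gene dpp 93.2, both in introns.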

How the data were processed

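The peak lists were deposited by the authors on dm6, and coordinates are given 1-based. The signal values (column 7) and the scores of each peak are the authors' own, as deposited. Signal values were not scaled between lists. Per the deposited descriptions, both sample and control alignments went into the lists. Which aligner and caller were run, and how, was not given in the sources used here. Read depth is unknown too, so no counting interval is given. Replicate values came from each replicate's own ranked list (overlap of at least 1 bp, nearest summit). A further 8 unnamed columns of the conservative ranked list were not used.

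Genes came from Ensembl release 115, without transposable elements (23694 start sites). A summit took the first class that applied: TSS, the 5' UTR, a coding exon, the 3' UTR, any other exon, an intron, or intergenic. Analyses used Python 3.11.15 with pandas 2.3.3, numpy 2.4.6 and pysam 0.24.0, and matching of peaks to genes was tested on simulated data. No significance test was run. The 9 genes, the gene lists and the motifs were chosen with earlier results of these data known. The text names the 9 genes, the gene with the start nearest each summit, up to 4 genes per list by signal, and the genes nearest sgg in replicate signal. Alternatives were another list, reach, threshold, TSS window and overlap, and the thresholded list of a single replicate in place of the combined list.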

Additional observations from a re-analysis of the deposited data

How the results depend on the processing

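With conservative peaks at or above the median signal value, 3 of the 9 genes had a summit in place of 5, with 4 summits in place of 12, and 18 of the 55 other genes in place of 31, while the share of all protein-coding genes was 21.7%. With the gene body alone, 4 of the 9 genes and 18 of the 55 other genes had a summit, against 9.22% of all protein-coding genes. The 9 genes then had 7 summits. That 9.22% is not matched for gene length, and a longer gene body has more room for a summit. The median window was 23.7 kb for the 9 genes and 19.0 kb for the 55, against 12.2 kb for all. Leaving out a replicate meant taking the other replicate's own thresholded list, already described above, and no combined list was rebuilt. Either list gave 4 genes with a summit. The lists gave 7 to 10 summits, 22 to 27 other genes, and 2 to 3 genes with a summit at an own start. With replicate 2 left out wg had no summit and pan had 1, with replicate 1 left out ptc had none at its own start, and smo had none with either replicate left out or in the optimal list. The other settings moved these counts by no more than 1.5 times. Of 63 counts for single genes under an alternative, 48 moved by no more than 1.5 times and 15 by more. The 48 include counts that stayed at 0, which were all of those at arm, hh and ci and most at pan. The 15 were at wg, sgg, nkd, ptc and smo, and at pan with replicate 2 left out, so the tally overstates how stable the summit counts were. No paired analysis was possible because the study has 1 group. The number of replicates, 2, limits every SD, and the unknown depth limits what a missing peak can show.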
